A study of Mus musculus with 6 samples.

Results

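Pou5f1 encodes OCT4, a POU-family transcription factor of the pluripotent cells of the embryo, and this text describes the open chromatin around it in mouse embryonic stem cells. A region entered when its midpoint lay inside Pou5f1 or within 100 kb of its annotated limits (mm10, chr17:35506032-35510777), which gave 26 of the 69689 accessible regions in the deposited table. Chromatin was opened to the Tn5 transposase in wild-type R1 cells, an embryonic stem cell line of the mouse, in ACC-seq, a variant of the assay in which Tn5 cuts accessible DNA and leaves sequencing adapters there. The 6 libraries were Fix_1,6-Hex (n = 2, cells held in 10% 1,6-hexanediol for 30 s and then in 1% formaldehyde for 10 min with the hexanediol still present), Fix (n = 2, formaldehyde alone for 10 min) and Fresh (n = 2, unfixed). Tagmentation ran at 55 °C for Fix_1,6-Hex and Fix and at 37 °C for Fresh, for 30 min in each case which leaves fixation and temperature confounded between Fix and Fresh. All cells were grown in serum, LIF and 2i on inactivated mouse embryonic fibroblasts, which were then depleted by replating.

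The aliphatic alcohol 1,6-hexanediol is used to disperse weakly held protein condensates before fixation. The deposited table gives a position and the name of 1 of 9 clusters for each region and no value per library, so neither Fix_1,6-Hex against Fix nor Fix against Fresh could be tested at this locus, the sequencing depth behind each region is unknown, and what accessibility pattern a cluster name stands for is not stated in any label or file used. Everything below is therefore position, width and cluster membership, with no replicate error and no direction between treatments. As a check of the labelled cell type, a region lay within 1 kb of a gene end at 6 of 8 embryonic stem cell markers, at 6 of 10 feeder fibroblast markers and at 60.9% of all 21887 protein-coding genes. Among genes with a start in the promoter table, a region covered a start of 7 of 7 stem cell markers, 2 of 6 fibroblast markers and 61.4% of 17492 genes. The stem cell markers include Pou5f1 itself, the gene of this locus, which is counted by both measures. The fibroblast markers with a gene-end region were Col1a1, Thy1 and Pdgfrb (cluster 1) and Col1a2, Pdgfra and Twist2 (cluster 9), and those without were Col3a1, Postn, Prrx1 and Lum. By gene ends, then, the feeder markers were at the level of all genes, and the part of remaining feeder cells in the listed regions was not tested.

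As background, OCT4 binds the octamer motif and, next to SOX2 on composite sites, holds the genes of the naive state active. Its own gene is known to be driven by a TATA-less proximal promoter with binding sites for Sp1-type factors and nuclear receptors, and by a distal and a proximal enhancer a short way upstream, of which the distal enhancer is the more active in naive stem cells. In the mouse the gene sits in the major histocompatibility complex, between class I genes of the H2-Q group and a set of skin and cell-cycle genes.

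The promoter of Pou5f1 lay in the middle of the broadest region of the locus. Its 250 bases upstream of the first annotated start (chr17:35505782-35506031, plus strand) are shown because the cluster 4 region covers them whole, and those upstream of the internal start that the promoter table also lists (chr17:35508557-35508806, plus strand) because the same region reaches them. Sequences are from RefSeq on GRCm38.p6, the assembly that mm10 names, 5′ to 3′, with capitals marking matches to the motifs searched.
Pou5f1 first start: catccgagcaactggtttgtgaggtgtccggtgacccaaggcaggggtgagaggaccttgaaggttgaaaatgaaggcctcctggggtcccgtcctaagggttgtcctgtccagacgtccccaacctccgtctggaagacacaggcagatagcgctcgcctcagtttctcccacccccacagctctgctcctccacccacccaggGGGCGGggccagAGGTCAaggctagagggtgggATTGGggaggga
Pou5f1 internal start: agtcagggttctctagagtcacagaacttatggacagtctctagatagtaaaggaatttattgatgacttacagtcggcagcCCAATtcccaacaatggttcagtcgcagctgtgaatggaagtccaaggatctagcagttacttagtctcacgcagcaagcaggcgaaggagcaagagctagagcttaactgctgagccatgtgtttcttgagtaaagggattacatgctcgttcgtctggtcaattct

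A set of 6 motif strings were searched on both strands of each 300-base window (250 bases before to 50 after a start): the octamer ATGCAAAT, the TATA box TATAAA, the CCAAT box CCAAT, the GC box GGGCGG, the nuclear receptor motif AGGTCA and the E-box CACGTG. No matches overlapped in the first Pou5f1 window. That window held a GC box 45 bases upstream of the start, AGGTCA 33 bases upstream and CCAAT on the opposite strand 12 bases upstream, each position being the first base of the match. GGGCGG was present in 35.7% of all 32851 promoter windows, CCAAT in 37.4% and AGGTCA in 16.3%. Among the 2087 windows whose start lay in a cluster 4 region, these shares were 74.7%, 43.9% and 10.6%. All 3, taken as a set because the Pou5f1 window held them, occurred together in 1.43% of all windows. They did so in 65 of the 2087 cluster 4 windows (3.11%). The octamer, the TATA box and the E-box had no match in this window, and they were present in 1.74%, 13.6% and 7.15% of all windows. The window of the internal start held a single CCAAT, 168 bases upstream. A match says only that the letters are there.

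The promoter had fewer CpG dinucleotides than most others in its cluster. The first Pou5f1 window had 11 CpG and the internal one 6, against a median of 24 in windows whose start lay in a cluster 4 region and 7 in all windows. Of the cluster 4 windows, 7.91% had fewer than 11. Its GC content was 62.7%, close to the cluster 4 median of 63.3%, while the internal window was at 45.7%.

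The region over the gene was chr17:35502215-35510049, 7835 bp wide and in cluster 4. It began 3817 bp upstream of the first start and ended 4017 bp downstream of it, so its midpoint fell 100 bp from that start. It covered 4018 of the 4746 bases of the gene (84.7%) and left only the last 728 bases outside. Upstream it ran over the stretch next to the gene where the enhancers are known to lie, and it reached into Gm32362, a long non-coding RNA gene on the minus strand whose start is 295 bp from that of Pou5f1. No other region overlapped Pou5f1, and the cluster and count at its ends were the same with the midpoint within 500 bp, 1 kb or 2.5 kb of a gene limit. The gene table gives gene limits without exons, so exonic and intronic parts are not separated.

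Few regions in the genome were wider. The Pou5f1 region ranked 49 of 69689 by width (median of all regions 474 bp), 6 of 2420 in cluster 4 (median 1366.5 bp), and 3 of 3150 on chromosome 17. Among the 1517 cluster 4 regions within 1 kb of a protein-coding gene end it ranked 3, after those of Bax, an apoptosis effector (11594 bp), and Eef1a1, a translation elongation factor (9359 bp), and before H2-DMa, a chaperone of class II peptide loading (6807 bp), and Zfp568, a KRAB zinc finger gene (5811 bp). It was also well centred for its width. Of the 659 regions of 3 kb or more that cover a protein-coding start, 8.80% had their midpoint closer to a start, and the median distance was 812.5 bp. Listed regions were nowhere less than 1001 bp apart, so the table cannot show whether 7835 bp is a continuous stretch or neighbouring sites joined across short gaps.

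**Figure D1:**
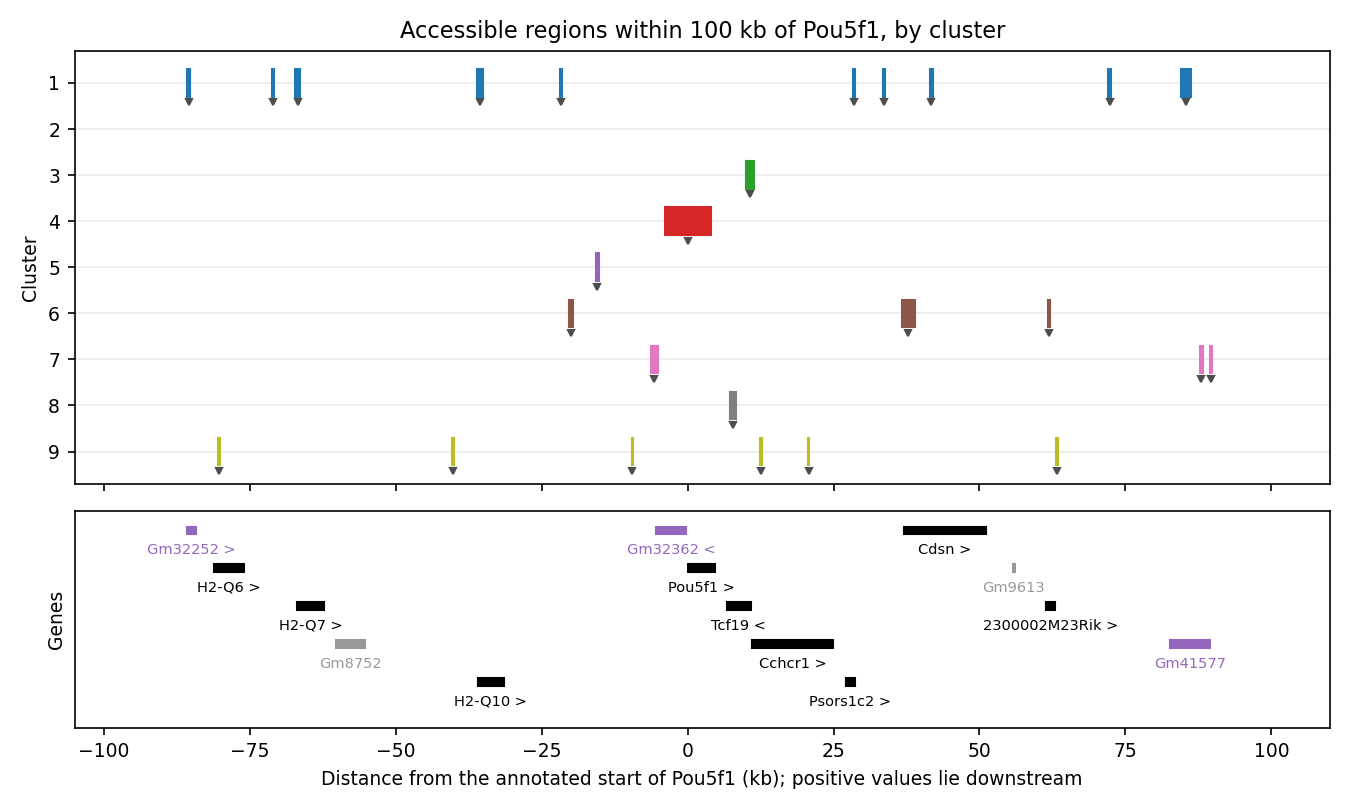
Upper panel: each accessible region drawn to scale by distance from the annotated start of Pou5f1 (kb), in a row for its cluster, with a small triangle below its midpoint. Lower panel: annotated genes, with > for the plus and < for the minus strand where the promoter table gives one (black protein-coding, purple long non-coding, grey pseudogene). The 7835 bp cluster 4 region straddles the start of Pou5f1, and the 10 cluster 1 regions all lie more than 20 kb from the gene.

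The other 25 regions fell 11 upstream and 14 downstream. The nearest upstream neighbour was chr17:35499696-35500999, a cluster 7 region of 1304 bp with its midpoint 5.68 kb from the gene, separated from the main region by 1215 bp. It was wider than 92.7% of the cluster 7 regions, whose median was 345 bp, and it covered the far end of Gm32362. Next came chr17:35496489-35496688 (cluster 9, 200 bp, 9.44 kb away), which has the smallest width in the table, and chr17:35490320-35490819 (cluster 5, 500 bp, 15.5 kb). These 3 regions thus came from 3 clusters, and none overlapped a protein-coding gene.

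Between 20 and 40 kb upstream stood chr17:35485635-35486326 (cluster 6, 692 bp, 20.1 kb) and, 1080 bp farther, chr17:35484108-35484554 (cluster 1, 447 bp, 21.7 kb). No annotated gene overlaps either. Beyond them the regions accompanied the H2-Q genes, class I histocompatibility genes that encode non-classical antigen-presenting molecules. The start of H2-Q10, which encodes a class I molecule secreted by the liver, lay in chr17:35469974-35471056 (cluster 1, 1083 bp, 35.5 kb), and chr17:35465639-35465981 (cluster 9, 343 bp, 40.2 kb) lay upstream of it. After a gap of 25960 bp, the longest of the locus, the start of H2-Q7 lay in chr17:35438772-35439678 (cluster 1, 907 bp, 66.8 kb), with chr17:35434770-35435195 (cluster 1, 426 bp, 71.0 kb) beside it. H2-Q6 had no region at its start but held chr17:35425601-35425978 (cluster 9, 378 bp, 80.2 kb) within the gene. Last on this side was chr17:35420247-35420827 (cluster 1, 581 bp, 85.5 kb) at the start of Gm32252, a long non-coding RNA gene. The next region outward, of cluster 9 and 220 bp, was 116.1 kb from the gene and fell outside the window.

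The H2-Q genes are paralogs, of which H2-Q6 and H2-Q7 were near-identical over their promoter windows and H2-Q10 was less alike, so regions at the first pair are given as uncertain in placement. The promoter windows of H2-Q6 and H2-Q7 matched at 254 of 261 aligned bases (97.3%), those of H2-Q7 and H2-Q10 at 78.0% and those of H2-Q6 and H2-Q10 at 77.2%. The upstream sequences of the closest pair (chr17:35424600-35424849 and chr17:35438905-35439154, both on the plus strand, capitals as above) are given to show the likeness. The part that misplaced reads had in the listed regions was not tested. Without the 6 regions within 5 kb of an H2-Q gene, 20 of the 26 remained and cluster 1 held 30.0% of them.
H2-Q6: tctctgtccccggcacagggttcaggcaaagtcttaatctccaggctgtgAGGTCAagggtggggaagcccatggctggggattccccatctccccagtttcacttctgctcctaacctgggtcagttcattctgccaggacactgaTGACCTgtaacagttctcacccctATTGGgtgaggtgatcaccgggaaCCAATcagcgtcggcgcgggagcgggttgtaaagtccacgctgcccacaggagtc
H2-Q7: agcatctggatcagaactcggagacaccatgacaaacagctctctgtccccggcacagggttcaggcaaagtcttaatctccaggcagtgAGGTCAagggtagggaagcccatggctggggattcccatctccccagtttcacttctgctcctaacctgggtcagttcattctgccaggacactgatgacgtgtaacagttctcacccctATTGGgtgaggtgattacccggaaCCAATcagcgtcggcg

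Downstream, the first 3 regions followed Tcf19 and Cchcr1, which are transcribed away from each other. Tcf19 encodes a PHD finger protein of proliferating cells and Cchcr1 a coiled-coil protein of the centrosome. The first, chr17:35513291-35514340 (cluster 8, 1050 bp, 3.04 kb from Pou5f1), lay inside Tcf19 towards its 3′ end, which faces Pou5f1. The second, chr17:35515950-35517428 (cluster 3, 1479 bp, 5.91 kb), covered the start of Tcf19 and both listed starts of Cchcr1, the nearest of which is 225 bp from that of Tcf19. The third, chr17:35518443-35518697 (cluster 9, 255 bp, 7.79 kb), was inside Cchcr1, as was chr17:35526657-35526864 (cluster 9, 208 bp, 16.0 kb). Each of the 2 divergent pairs of this locus, Pou5f1 with Gm32362 and Tcf19 with Cchcr1, thus shared a region, of cluster 4 and cluster 3.

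The promoter between Tcf19 and Cchcr1 (250 bases upstream of Tcf19, chr17:35516825-35517074, minus strand) is shown because it is the other divergent promoter of the locus and its start lies in a cluster 3 region. It held 3 CCAAT boxes and a GC box upstream of the start, the full window also had a GC box after the start, and there was no AGGTCA. It had 34 CpG, against 11 in the Pou5f1 window.
Tcf19: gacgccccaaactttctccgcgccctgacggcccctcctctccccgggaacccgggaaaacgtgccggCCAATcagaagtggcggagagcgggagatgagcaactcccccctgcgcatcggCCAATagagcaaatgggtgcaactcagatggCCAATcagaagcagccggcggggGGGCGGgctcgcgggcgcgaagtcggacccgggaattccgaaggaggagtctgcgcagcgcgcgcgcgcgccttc

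Farther downstream came genes of the epidermis. At Psors1c2, a gene of the psoriasis susceptibility region, chr17:35534314-35534727 (cluster 1, 414 bp, 23.7 kb) lay at the 3′ end and no region covered the start. Before Cdsn, which encodes corneodesmosin, an adhesion protein of the outer epidermis, stood chr17:35539467-35539819 (cluster 1, 353 bp, 28.9 kb). The first start of Cdsn lay in chr17:35542689-35545028 (cluster 6, 2340 bp, 33.1 kb), the second widest region of the locus, and chr17:35547474-35548020 (cluster 1, 547 bp, 37.0 kb) was inside the gene. Cdsn, a gene active in skin, thus had 1 of its 2 listed starts in a region, which was wider than 92.5% of cluster 6 regions. Its other listed start lay in no region.

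The outermost regions were mostly narrow. At 2300002M23Rik there were chr17:35567842-35568134 (cluster 6, 293 bp, 57.2 kb) inside the gene and chr17:35569220-35569499 (cluster 9, 280 bp, 58.6 kb) just past its end. An intergenic region, chr17:35578131-35578529 (cluster 1, 399 bp), lay at 67.6 kb. The long non-coding RNA gene Gm41577 held chr17:35590525-35592192 (cluster 1, 1668 bp, 80.6 kb), the third widest of the locus, and chr17:35593834-35594243 (cluster 7, 410 bp, 83.3 kb). The last, chr17:35595588-35595830 (cluster 7, 243 bp, 84.9 kb), was just beyond that gene. Outside the window the next region was of cluster 1, 1059 bp wide and 125.3 kb away.

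**Figure D2:**
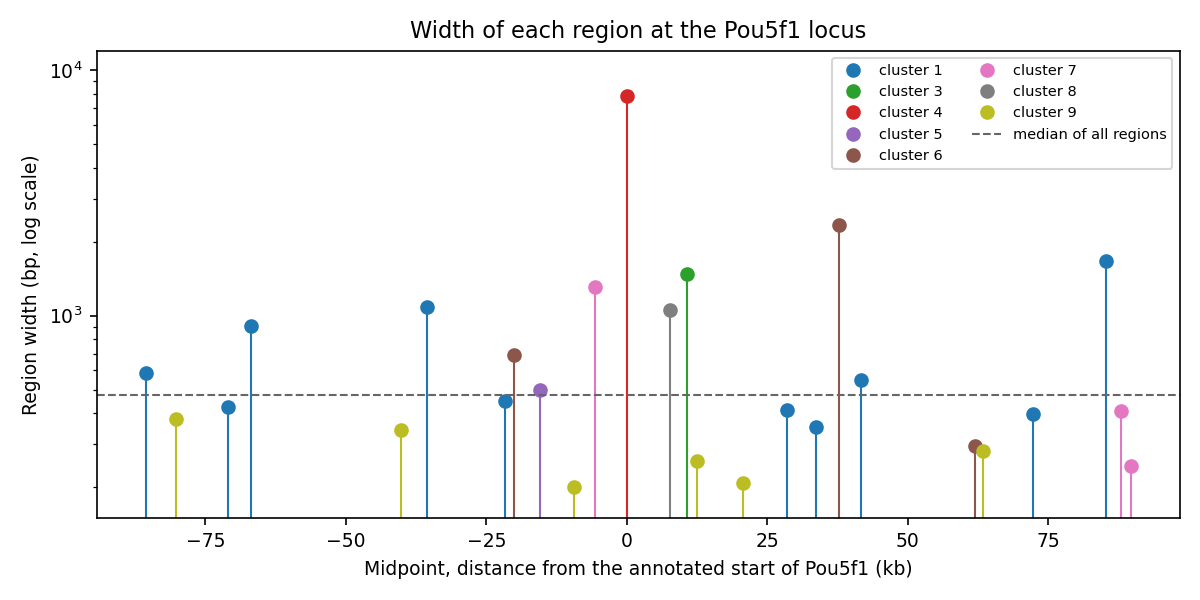
Width of each of the 26 regions (bp, log scale) against the distance of its midpoint from the annotated start of Pou5f1 (kb), coloured by cluster, with the median of all 69689 regions (474 bp) as a dashed line. The region over the gene stands at 7835 bp, and the next widest, at Cdsn, is 2340 bp.

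Width was concentrated at the gene. The 26 regions covered 24.6 kb, or 12.0% of the window, and the Pou5f1 region alone made up 31.8% of that. The median width was 436.5 bp, close to the 474 bp of all regions, with 14 regions under 500 bp and 7 over 1 kb. Of these 7, 4 lay within 6 kb of the gene or over it. Per 20 kb step outward, the upstream side had 3, 3, 1, 2 and 2 regions and the downstream side 4, 4, 2, 1 and 3. Within 20 kb of the gene, the main region and its 7 neighbours came from 6 clusters. Of the 1011 protein-coding genes more than 1 Mb away with 8 regions within 20 kb, 21.2% had 6 or more clusters (median 5). None of the 8 regions was of cluster 1, which held 18.7% of all regions.

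By number of regions the locus was well covered for a mouse gene. Its 26 regions compare with a median of 11 (quartiles 5 and 18) over 21780 protein-coding genes more than 1 Mb away, of which 91.9% had fewer. Genes of chromosome 17 had more regions than genes at large, with a median of 14, and 84.6% of those 952 genes had fewer than Pou5f1. Within 20 kb, its 8 regions compare with a median of 4, and 84.9% of genes had fewer. Tcf19 and Cchcr1 had the same 26 regions in their own windows, so the count belongs to the neighbourhood.

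**Figure D3:**
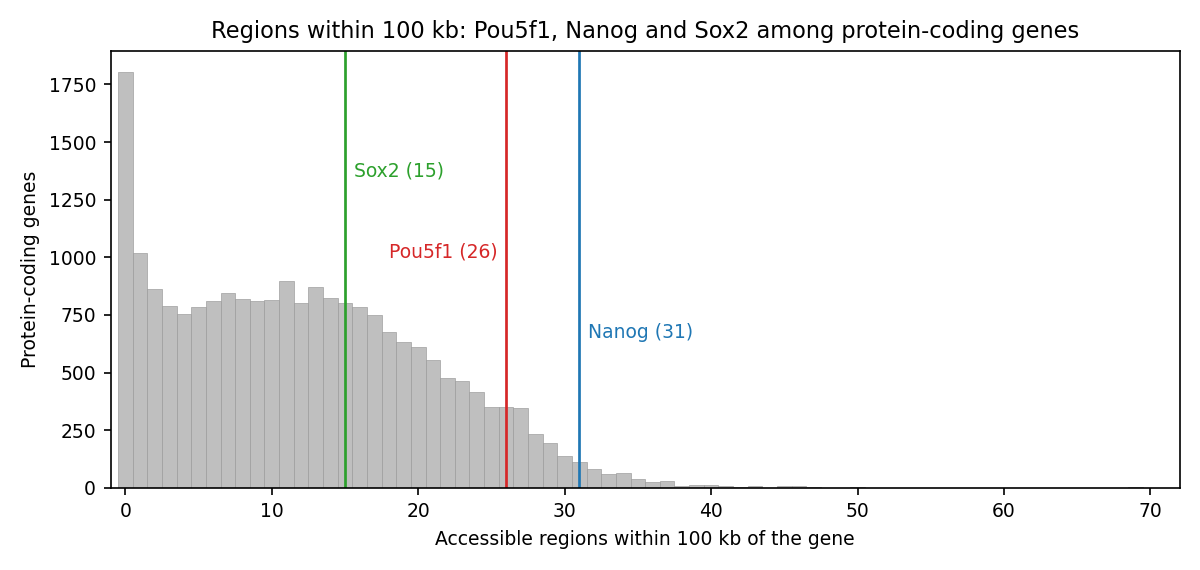
Number of protein-coding genes (bars) by the number of accessible regions within 100 kb, over 21780 genes more than 1 Mb from Pou5f1, with lines at the values of Pou5f1 (26), Nanog (31) and Sox2 (15). Pou5f1 lies in the upper tail and between the other two.

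All clusters but cluster 2 were found around Pou5f1. Cluster 1 held 10 of 26 regions (38.5%, exact binomial 95% CI 20.2 to 59.4), against 21.5% on chromosome 17 and 18.7% of all regions. Cluster 9 held 6 (23.1%, 8.97 to 43.6), against 26.2% of all regions, and clusters 6 and 7 held 3 each (11.5%, 2.45 to 30.2), against 12.7% and 18.9%. Clusters 3, 4, 5 and 8 had a single region each, and cluster 2 had none (0%, up to 13.2%), against 2.27% of all regions. The intervals cover counting error and treat neighbouring regions as independent. The cluster 1 regions were split 5 and 5 between the upstream and downstream sides, and the nearest was 21.7 kb from the gene. Of protein-coding genes, 2.18% had 10 or more cluster 1 regions in the same window (median 2). That share is over genes with any number of regions (median 11, against 26 at Pou5f1). Cluster 1 was not compared among genes with an equal number of regions. Having 8 clusters was common at this density, since 41.7% of the 350 genes with 26 regions had 8 or more.

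Among the loci of the core pluripotency factors, Pou5f1 had the broadest gene-end region and Nanog the most open sequence. Nanog, the homeodomain factor of the naive state, had 31 regions covering 48.7 kb, with a median width of 1040 bp, and Sox2, the partner of OCT4 on DNA, had 15 covering 15.8 kb, with a median of 700 bp, against 26, 24.6 kb and 436.5 bp at Pou5f1. The gene-end region was 7835 bp at Pou5f1 (cluster 4), 4158 bp at Nanog (cluster 6) and 3582 bp at Sox2 (cluster 8). At Nanog 5 regions were 3 kb or wider, and the widest (6725 bp, cluster 3) was 49.6 kb from the gene, while Pou5f1 and Sox2 had a single such region, over the gene. Cluster 6 made up 11.5% of regions at Pou5f1, 32.3% at Nanog (16.7 to 51.4) and 6.67% at Sox2 (0.169 to 31.9). Cluster 1 made up 38.5% at Pou5f1, 12.9% at Nanog (3.63 to 29.8) and 33.3% at Sox2 (11.8 to 61.6). With 15 to 31 regions per locus these intervals overlap. They treat neighbouring regions as independent, so their overlap does not compare the loci, and the differences between loci were not tested.

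**Figure D4:**
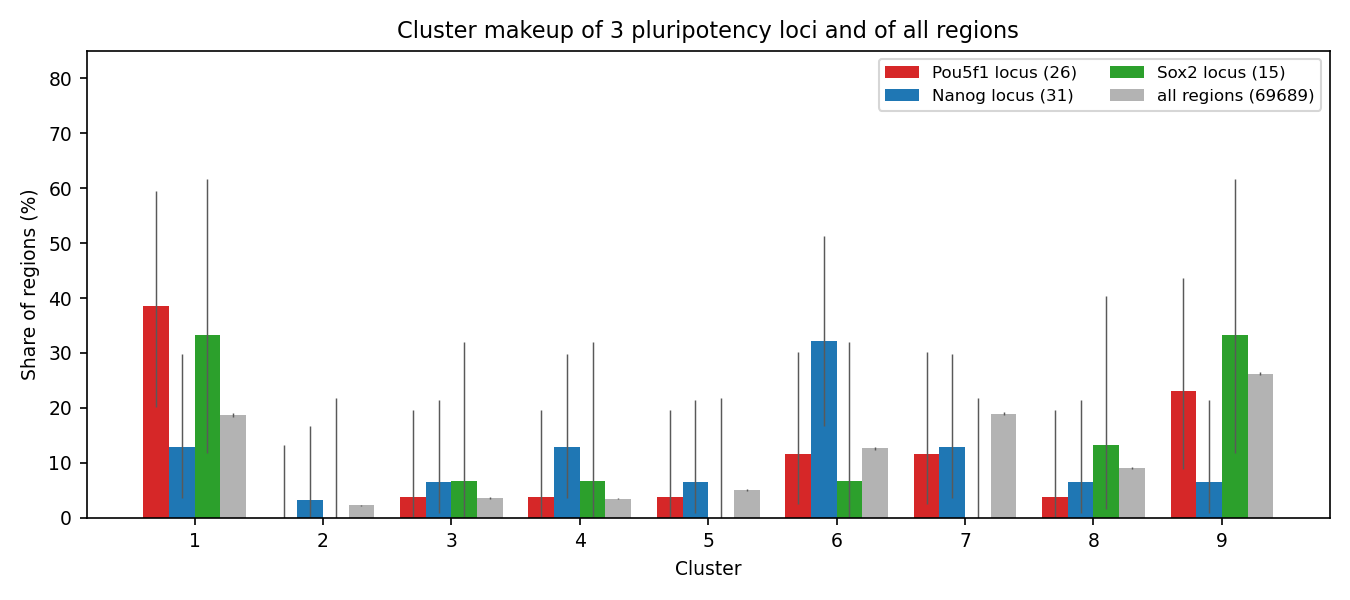
Share of regions in each cluster (%) at the Pou5f1, Nanog and Sox2 loci (26, 31 and 15 regions) and over all 69689 regions, with exact binomial 95% intervals. These intervals treat neighbouring regions as independent. Cluster 1 has the largest share at Pou5f1 (38.5%) and cluster 6 at Nanog (32.3%).

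Tcf19 and Cchcr1, whose windows hold the same regions, had the same counts of the 9 clusters as Pou5f1. Among genes more than 1 Mb away, those most like it by these counts were Mars1, a methionyl-tRNA synthetase (Bray-Curtis dissimilarity 0.0714, where 0 is identity, over 9 clusters), Gli1, a transcription factor of Hedgehog signalling (0.0769), Mxi1, a MAX-binding antagonist of MYC (0.0800), Wdr88, a WD-repeat gene (0.0833), and Ddit3, the stress factor CHOP (0.0877). Mars1, Gli1 and Ddit3 are neighbours on chromosome 10, so their windows overlap and share regions. The next gene was close behind, at 0.0909. The median dissimilarity over 21780 genes was 0.487, that of Nanog was 0.439 and that of Sox2 0.317. The counts were not scaled, so these values also reflect the number of regions. That number was 26 at Pou5f1, 31 at Nanog and 15 at Sox2, with a median of 11 over all these genes. Genes with an equal number of regions were not compared separately.

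Starts of the genes in the window were inside a region at a share near that of all genes. Of 9 protein-coding genes reaching into the window, 6 had a listed start inside a region (Pou5f1, H2-Q7, H2-Q10, Tcf19, Cchcr1 and Cdsn), against 61.4% of the 17492 protein-coding genes in the promoter table. The 6 starts were in cluster 4 (Pou5f1), cluster 3 (Tcf19, Cchcr1), cluster 1 (H2-Q7, H2-Q10) and cluster 6 (Cdsn). Cluster 4 covered a start of 9.20% of genes.

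By gene ends, the cluster of Pou5f1 was about as frequent in the pluripotency network as at genes at large. Of 28 listed genes other than Pou5f1, 21 had a region within 1 kb of a gene end. Cluster 4 was at 3 of these 21 genes, and at 13.5% of the 13321 protein-coding genes that have a gene-end region. They were Tfcp2l1, a naive-state transcription factor (region of 3471 bp), Fgf4, the growth factor that drives exit from pluripotency (2 cluster 4 regions, the wider 1440 bp), and Zfp281, a zinc finger factor (1571 bp). The same 3 genes had a start in a cluster 4 region, out of the 17 network genes in the promoter table, against 9.20% of all such genes. Cluster 6 was at 8 of the 21 genes, against 6.70% of all genes that have a gene-end region. They include Klf4 and Klf5, Krüppel-like factors that act with OCT4. The cluster 6 region at Klf4 did not overlap the gene, whose start lay in a cluster 8 region. Of the 17 network genes in the promoter table, only Nanog, Nr0b1 and Utf1 had a start in cluster 6, against 3.71% of all such genes. The list was drawn up with earlier results of these data known, so the cluster 6 count is no independent support. Klf2, another Krüppel-like factor gene, was in cluster 3 (5272 bp). Esrrb, a nuclear receptor, had narrow regions of clusters 7 and 9 at its gene ends (309 bp at most). Regions of clusters 1 and 9 covered annotated starts of Esrrb, and the widest region within 100 kb of it was 12608 bp. None of the 21 genes had a gene-end region as wide as that of Pou5f1, the widest being that of Klf2.

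**Figure D5:**
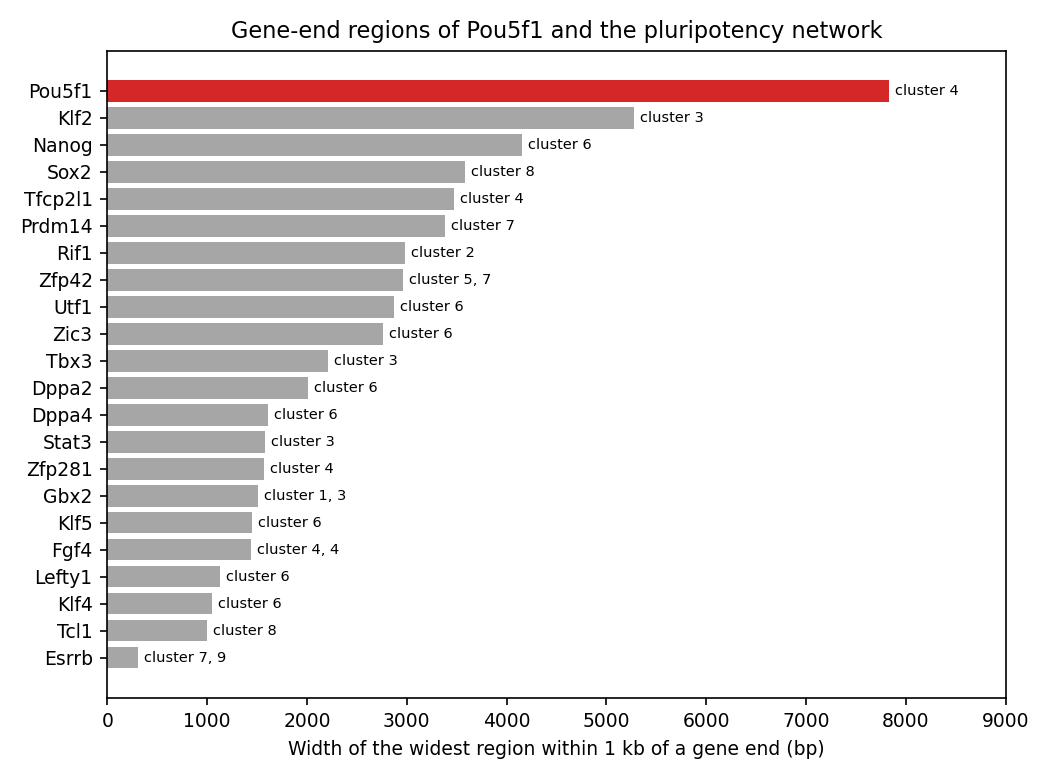
Width (bp) of the widest region within 1 kb of an end of Pou5f1 (red) and of each of the 21 pluripotency network genes that have such a region (grey), with the clusters of all regions at that gene's ends. Pou5f1 stands at 7835 bp and Klf2, the next, at 5272 bp.

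In the POU family, cluster 1 was the usual cluster at gene ends. Of 14 listed paralogs, 10 had a gene-end region, and 9 of these had one in cluster 1, against 21.6% of protein-coding genes with a gene-end region. Cluster 4 was at 0 of the 10, against 13.5% of genes. They include Pou2f2, an OCT2-encoding gene of B cells (304 bp at most), Pou2f3, a factor of tuft cells (916 bp), and Pou3f1, a factor of glia and of primed cells (2553 bp). Pou2f1, which encodes the broadly expressed OCT1, was in cluster 3 (2234 bp). Pou1f1 of the pituitary and Pou3f2 of neural cells had no gene-end region by midpoint. A cluster 8 region nonetheless covered an annotated start of Pou3f2, and none covered one of Pou1f1. Counting by a region that covers an annotated start, cluster 1 was at 4 of the 10 paralogs with a start in the promoter table, against 11.1% of all genes with such an entry. The list was drawn up with cluster 1 already known to be frequent at developmental factors in these data, so its count is no independent support.

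By gene ends, partners of OCT4 had cluster 4 at a share near that of all genes. Of 20 listed cofactors, subunits of chromatin complexes and coregulators found with OCT4, 17 had a gene-end region and 3 had it in cluster 4 (13.5% of all genes with a gene-end region), namely Zfp281, Ctr9, a PAF complex subunit (1101 bp), and Trim24, a bromodomain coregulator (1534 bp). Sall1, a zinc finger factor, had the widest region of that list (6231 bp, cluster 8). Chd4, the remodeller of the NuRD complex, had clusters 1 and 6, and the deacetylase genes Hdac1 and Hdac2 had cluster 3 and cluster 1. Sall4 and Mta1 had no gene-end region by midpoint. Regions of clusters 6 and 8 nonetheless overlapped Sall4, and regions of clusters 1, 6 and 9 overlapped Mta1.

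The listed regulators of Pou5f1 itself were spread over 7 clusters at their gene ends. Of these 18 genes, 15 had a gene-end region, and cluster 4 was at 0 of the 15, against 13.5% of all genes with a gene-end region. Clusters 8 and 9 were at 4 genes each, against 24.1% and 10.4% of such genes. Among the nuclear receptors that act on the Pou5f1 promoter, Nr5a1 and the repressor Nr2f1 were in cluster 9 (378 and 1664 bp), the repressor Nr2f2 in cluster 1 (493 bp), Rarg, a retinoic acid receptor, in clusters 1 and 8 (1186 bp at most), and the repressor Nr6a1 in clusters 1 and 3 (2412 bp at most). The cluster 9 region at Nr5a1 did not overlap the gene, and the only region that did was of cluster 1. Nr5a2, an activator of Pou5f1 in the epiblast, had no gene-end region by midpoint, but a cluster 3 region covered an annotated start. When any overlap with the gene was counted, 2 of the 18 had a cluster 4 region. The share of all genes by that measure was not computed, so whether this count is usual is unknown.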

How the data were processed

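ACC-seq was done on 6 libraries, 2 each of Fix_1,6-Hex, Fix and Fresh R1 cells. Per the submitters' processing notes, the authors worked on mm10 with SAMtools 1.6, Picard, Bowtie2 2.3.3.1 and cutadapt 1.18. Region calling and clustering are not described in the labels. The deposited table pools the libraries and gives position and cluster name, so depth, precision and replicate spread are unknown, no test between groups was run and intervals cover counting error only. Positions, which start at 0 in the table, are counted from 1 here.

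Regions were placed by midpoint. Gene limits came from a RefSeq gene table (GRCm38.p6, 21887 protein-coding genes) and strands, starts and sequences from its promoter table, in which 11 genes of the locus have an entry. Percentiles and the nearest genes leave out genes within 1 Mb of Pou5f1. Counts of covered starts are over genes with a promoter entry. A gene-end region has its midpoint within 1 kb of either gene limit. Promoter pairs were aligned globally with free ends (match 1, mismatch -1, gap opening -3, extension -1). Counting was tested on simulated data.

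The locus, the gene lists and the windows were chosen with earlier results of these data known. All listed genes matched by symbol. Genes were named by rule: protein-coding neighbours, list members in the cluster of Pou5f1, the first 6 of each list, the 5 nearest by Bray-Curtis dissimilarity and the 5 widest cluster 4 gene-end regions. The non-coding neighbours, Sall1 and the genes of the closing section were picked with their values in view. Python 3.11.15, numpy 2.4.6, pandas 2.3.3, SciPy 1.17.1, Biopython 1.88 and matplotlib 3.10.9 were used.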

Additional observations from a re-analysis of the deposited data

How the results depend on the processing

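Of 65 alternative values for 18 results, 53 were classed as the same as the reported value and 12 as moved. Values classed as the same were not all close to it, and examples are given below. The locus had 16 regions with a window of 50 kb and 40 with 200 kb, as the width of the window sets. It had 20 without regions near H2-Q genes, against 26, which was classed as the same. The share of protein-coding genes with fewer regions was 87.0% with a window of 200 kb, 95.8% with 100 kb around the lower gene limit and 84.6% among genes of chromosome 17 (added after seeing the data). By covered bases in place of number, cluster 4 made up 31.8% and cluster 9 made up 6.75% of the locus, as their widths set. Cluster 1 made up 27.7% by covered bases, against 38.5% by number, which was also classed as the same. The Pou5f1 region was wider than 99.9% of all regions and 99.8% of cluster 4. Counting any overlap with the gene gave 6 pluripotency network genes with a cluster 4 region and 2 regulators of Pou5f1, and a distance of 2.5 kb gave 1 regulator, since a wider search takes in more regions. The shares of all genes by these measures were not computed, so these counts have no background beside them. Cluster 1 was at the ends of 9 POU family genes and covered an annotated start of 4 (added after seeing the data), for which 10 of the 14 genes have a promoter entry. No paired analysis was possible because the table has no value per library, and for the same reason no replicate could be left out. Depth is unknown.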

Other observations

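The cluster 4 regions at gene ends that ranked 6 to 10 by width, after that of Pou5f1 and the other 4 named above, were at Dusp1, a phosphatase of MAP kinases (5740 bp), Eif1, a translation initiation factor (5569 bp), H3c1, a replication-dependent histone gene (5274 bp), Phf12, a PHD finger protein of a Sin3 corepressor complex (5198 bp), and Dusp6, a phosphatase of ERK (5125 bp), against 7835 bp at Pou5f1. They were named after their values were seen, and no test was made.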
